A study of Mus musculus with 10 samples.

Results

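The genes described here are 9 that mark hippocampal interneurons or make and load their transmitter GABA. They are Gad1 and Gad2, Slc32a1, Dlx1 and Lhx6, Pvalb, Reln, Nos1 and Erbb4, taken by symbol from the 27343 Ensembl genes of the deposited table. All 9 were in the table, and all 9 passed the filter on low counts, which kept 15938 genes. Hippocampal RNA was sequenced from wild-type male C57BL/6J mice that were 2 months old. The Visudyne group (libraries 1 to 5) received Visudyne, the photosensitizer verteporfin, into the cisterna magna to ablate meningeal lymphatic vessels. The vehicle group (libraries 6 to 10) received the vehicle by the same route. Per the labels, red light of 689 nm was applied over the closed skull, the procedure was done again 2 weeks later, the mice of both groups swam the Morris water maze, and the hippocampus was taken whole 3 days after it. The labels number the libraries but do not say that each is a separate mouse, so the p-values measure the spread between these libraries.

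GABA, the main inhibitory transmitter of the forebrain, is made from glutamate by glutamate decarboxylase, an enzyme that needs pyridoxal phosphate. It is then loaded into vesicles by the transporter that Slc32a1 encodes. Interneurons reach the hippocampus from the ganglionic eminences of the embryo, and transcription factors of the Dlx family and Lhx6 belong to that lineage. In the adult they divide into types by the proteins they hold, among them parvalbumin, somatostatin, reelin and neuronal nitric oxide synthase.

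Transcripts of Erbb4 and Gad2 were 1.36 and 1.20 times as abundant in Visudyne as in vehicle hippocampus, and Pvalb was at 0.703 of its vehicle level. These 3 of the 9 genes passed the test, edgeR's quasi-likelihood test at a Benjamini-Hochberg adjusted p under 0.05 over all 15938 genes. The other 6 did not, with folds between 0.84 for Lhx6 and 1.14 for Reln. Of all genes tested, 20.5% were called, 8.98% higher and 11.5% lower in Visudyne. The median log2 fold change was 0.07 over the 9 genes and 0.01 over all genes tested. All 3 calls ended once the GC trend of every library was taken out, with Pvalb at a log2 fold change of -0.46, against -0.51 before, Erbb4 at 0.19, against 0.44, and Gad2 at 0.11, against 0.27. There Slc32a1 and Nos1 were called higher instead. In that fit 3.92% of all genes were called, 1.97% higher and 1.95% lower.

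Total counts lay between 34548474 and 36956138 in Visudyne and between 24752362 and 41073906 in vehicle libraries, and the 9 genes drew from 64 counts (Slc32a1) to 10034 counts (Gad1) in a library. GC content, the percentage of G and C bases in a gene's longest annotated transcript, went with expression to a different degree in each library. The slope of expression on GC content, in log2 per 10 points of GC, ran from -0.53 to 0.026 in Visudyne and from 0.002 to 0.42 in vehicle libraries. The mitochondrial ribosomal gene mt-Rnr2 took 33.6% to 39.7% of the counts in Visudyne and 32.2% to 35.7% in vehicle libraries. With the mitochondrial genes left out, the log2 fold changes of Erbb4, Pvalb and Gad2 were 0.43, -0.52 and 0.26, against 0.44, -0.51 and 0.27 with them. The 9 genes spanned 40.6% GC for Erbb4 to 61.9% for Slc32a1. Choroid plexus markers were high in Visudyne 3 and Visudyne 5, where Ttr stood at 304.0 and 229 CPM, against 1.15 to 2.01 CPM in the other Visudyne libraries and 1.83 to 8.03 CPM in vehicle. Values in CPM are gene counts as a share of the library's total, scaled by TMM factors. Mag, a myelin gene, was listed at 0 in 5 libraries beside abundant myelin transcripts, so a listed 0 or a low value in this table need not be the gene's true level. In bulk tissue, fewer cells of a type and less RNA per cell cannot be told apart.

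Per kilobase of merged exons, the genes of the GABA synthesis enzymes, Gad1 and Gad2, had the highest mean levels of the 9 in both groups. In CPM, the mean of Erbb4 lay between theirs. Gad1 (ENSMUSG00000070880, GRCm38 chromosome 2, 70553072 to 70602014, plus strand) encodes GAD67, which makes GABA throughout the cell. It stood at 243, 224, 235, 241 and 207 CPM in Visudyne 1 to 5, against 224, 227, 227, 203 and 213 CPM in vehicle 6 to 10. The groups overlapped over most of their range. The means were 230.2 ± 14.6 CPM with Visudyne and 219 ± 10.7 CPM with vehicle (SD, n = 5 each), at log2 fold change 0.07 ± 0.06 (SE, edgeR adjusted p = 0.395).

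Gad2 (ENSMUSG00000026787, chromosome 2, 22622205 to 22693874, plus strand) encodes GAD65, the form attached to synaptic vesicles. Its level was 195, 156, 187, 162 and 142 CPM in Visudyne 1 to 5, against 147, 147, 143, 125 and 138 CPM in vehicle 6 to 10. Visudyne 1 to 4 lay above every vehicle library, and Visudyne 5 lay among them. The log2 fold change was 0.27 ± 0.09 (SE, edgeR adjusted p = 0.0485), from 168.6 ± 22 CPM with Visudyne and 140.1 ± 9.09 CPM with vehicle (SD, n = 5 each). That call sat at the threshold. It ended in 9 of the 10 fits that left out 1 library, all but the one without Visudyne 5 (edgeR adjusted p = 0.0152 to 0.116). With the GC trend removed the log2 fold change was 0.11 (edgeR adjusted p = 0.321), and adjusted for the GC slope of each library it was 0.01 (edgeR adjusted p = 0.984).

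Because both enzymes are read in the same library, their ratio does not depend on library scaling. Gad2 over Gad1 was 0.804, 0.695, 0.796, 0.673 and 0.687 in Visudyne 1 to 5, against 0.656, 0.645, 0.63, 0.617 and 0.648 in vehicle 6 to 10. The ratio was higher in each Visudyne library than in any vehicle library. On GC-corrected values it was 0.654 to 0.757 in Visudyne and 0.645 to 0.696 in vehicle, and the groups overlapped. The transcripts differ in GC content, at 47.3% for Gad1 and 44.1% for Gad2. Visudyne 1 and 3, the libraries with the highest ratios, had the steepest negative GC slopes. Their summed thalamus and habenula markers were also the highest, at 160.3 and 144.1 CPM. The other Visudyne libraries had 95.2 to 103.5 CPM and the vehicle libraries 84.0 to 114.1 CPM. The slopes also differed by group and overlapped only between Visudyne 5 and vehicle 10. The part of the slope, or of thalamus and habenula RNA, in the ratio was not tested.

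Slc32a1 (ENSMUSG00000037771, chromosome 2, 158610767 to 158615748, plus strand), the vesicular GABA transporter gene, was measured at 2.73, 2.58, 3.61, 2.98 and 3.26 CPM in Visudyne 1 to 5 and at 3.26, 2.59, 2.49, 3.05 and 2.52 CPM in vehicle 6 to 10. The groups overlapped, at log2 fold change 0.12 ± 0.13 (SE, edgeR adjusted p = 0.525). After removal of the GC trend the values were 2.80 to 4.89 CPM with Visudyne and 1.89 to 2.56 CPM with vehicle, with no overlap, which held for 2.96% of all genes in this direction, and the log2 fold change was 0.70 ± 0.16 (SE, edgeR adjusted p = 0.04). Adjusted for the GC slope it was 0.32 ± 0.18 (SE, edgeR adjusted p = 0.724). In either direction the groups did not overlap in 7.2% of all genes on that scale, and in 4.24% Visudyne was the lower. The call with the GC trend removed held in 3 of 10 fits that also left out 1 library (edgeR adjusted p = 0.0205 to 0.104) and was absent without any one of Visudyne 1, 3 or 4 or vehicle 6, 7, 8 or 9. The size of the change was at least 0.59 on the log2 scale in each of those 10 fits. At 64 to 142 counts in a library, Slc32a1 was the most thinly counted of the 9 genes.

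**Figure D1:**
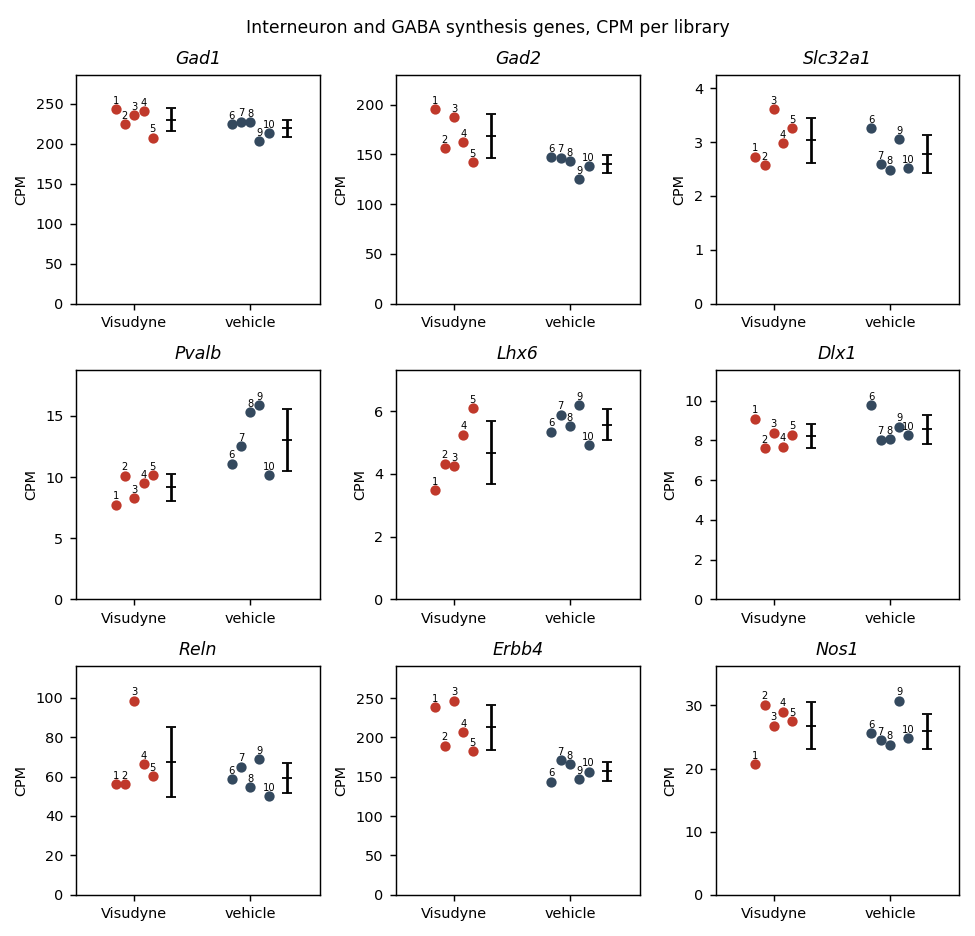
CPM of the 9 genes (vertical axes from 0), with 1 point per library labelled by its number, Visudyne left and vehicle right, and the mean ± SD as a black bar (n = 5 each). The groups do not overlap for Erbb4 and Pvalb, and Reln in Visudyne 3 stands at 98.6 CPM, above the 66.2 CPM of the next Visudyne library.

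Neither of the lineage transcription factors was called. Dlx1 (ENSMUSG00000041911, chromosome 2, 71528113 to 71533981, plus strand) acts in interneuron precursors and is kept in several adult types. Its level was 9.10, 7.6, 8.39, 7.68 and 8.29 CPM in Visudyne 1 to 5, against 9.79, 8.03, 8.06, 8.69 and 8.26 CPM in vehicle 6 to 10, at log2 fold change -0.06 ± 0.09 (SE, edgeR adjusted p = 0.61). The sign was the opposite with the GC trend removed, at 0.27 (edgeR adjusted p = 0.188). Dlx1as, an antisense gene that overlaps Dlx1, averaged 4.45 CPM. The kit keeps strand, but how strand was used in counting is not given in the sources used here.

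Lhx6 (ENSMUSG00000026890, chromosome 2, 36081953 to 36105408, minus strand) specifies the parvalbumin and somatostatin lineages of the medial ganglionic eminence. It stood at 3.48, 4.33, 4.24, 5.26 and 6.10 CPM in Visudyne 1 to 5 and at 5.35, 5.90, 5.52, 6.20 and 4.92 CPM in vehicle 6 to 10. Visudyne 1 to 3 were below every vehicle library, and Visudyne 5 was among the highest. The log2 fold change was -0.25 ± 0.14 (SE, edgeR adjusted p = 0.205), and without Visudyne 5 it was -0.37 and called (edgeR adjusted p = 0.0456). It turned to 0.11 with the GC trend removed (edgeR adjusted p = 0.489).

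Among the genes of mature types, Pvalb fell. Pvalb (ENSMUSG00000005716, chromosome 15, 78191114 to 78206400, minus strand) encodes parvalbumin, the calcium buffer of fast-spiking basket and axo-axonic cells. Its level was 7.72, 10.1, 8.26, 9.48 and 10.1 CPM in Visudyne 1 to 5, against 11.1, 12.5, 15.3, 15.9 and 10.2 CPM in vehicle 6 to 10. The groups met without overlap, since Visudyne 5 had 10.14 CPM and vehicle 10 had 10.15 CPM. No Visudyne library reached the vehicle mean. The log2 fold change was -0.51 ± 0.13 (SE, edgeR adjusted p = 0.0298), from 9.14 ± 1.10 CPM with Visudyne and 13.0 ± 2.53 CPM with vehicle (SD, n = 5 each). Of all genes tested, 12.5% had groups that did not overlap, and 7.22% had them with Visudyne lower.

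The size of the Pvalb difference changed little when the GC trend was removed (log2 fold change -0.46, edgeR adjusted p = 0.0547), and the groups then overlapped by a small margin, at 8.15 to 10.3 CPM with Visudyne and 10.1 to 15.4 CPM with vehicle. Adjusted for the GC slope of each library it was -0.19 (SE 0.16). Leaving out 1 library kept it between -0.59 and -0.44, and the call ended without Visudyne 1, 3 or 4 or vehicle 6, 8 or 9 (adjusted p up to 0.0731 by edgeR). Without both Visudyne 3 and 5, a setting chosen after the data were seen, it was -0.52 (edgeR adjusted p = 0.0512). Per Gad1 transcript, Pvalb was at 0.0318, 0.0451, 0.0351, 0.0394 and 0.0489 in Visudyne 1 to 5 and at 0.0494, 0.0551, 0.0674, 0.0783 and 0.0476 in vehicle 6 to 10. On this ratio Visudyne 5 lay above vehicle 10, and these are the Visudyne and the vehicle library with GC slopes closest to 0. The part of the slope in this ratio was not tested.

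Reln (ENSMUSG00000042453, chromosome 5, 21884454 to 22344702, minus strand) encodes reelin, a secreted matrix protein of neurogliaform and oriens interneurons and of Cajal-Retzius cells. Its values were 56.3, 56.1, 98.6, 66.2 and 60.3 CPM in Visudyne 1 to 5, against 58.6, 65.0, 54.7, 68.9 and 49.9 CPM in vehicle 6 to 10. Visudyne 3 stood apart, and the other 4 lay inside the vehicle range. The log2 fold change was 0.18 ± 0.15 (SE, edgeR adjusted p = 0.381) and 0.0071 without Visudyne 3. The Cajal-Retzius genes Ebf2 and Ebf3 were also highest in Visudyne 3, at 2.36 and 2.68 CPM. Visudyne 1, at 1.88 and 2.29 CPM, came close to it without a high Reln value. Trp73, the defining Cajal-Retzius marker, stood at 0.319 CPM in Visudyne 3, against 0.385 to 0.689 CPM in vehicle. The summed level of the 6 Cajal-Retzius markers was 1.46 to 5.78 CPM with Visudyne and 1.70 to 4.41 CPM with vehicle, with 4 of the 6 (Trp73, Lhx1, Lhx5 and Nhlh2) under 1 CPM in every library. Choroid plexus markers summed to 1538 CPM in Visudyne 3 and to 963.5 CPM in Visudyne 5, where Reln stood at 60.3 CPM. The part of Cajal-Retzius cells, or of choroid plexus RNA, in the Reln value of Visudyne 3 was not tested.

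Nos1 (ENSMUSG00000029361, chromosome 5, 117781032 to 117958840, plus strand) encodes neuronal nitric oxide synthase, strong in ivy and neurogliaform cells. It stood at 20.7, 30.1, 26.8, 29.0 and 27.5 CPM in Visudyne 1 to 5 and at 25.6, 24.5, 23.8, 30.8 and 24.8 CPM in vehicle 6 to 10. Visudyne 1 was the lowest and vehicle 9 the highest of all 10 libraries, and these 2 also had the GC slopes farthest from 0. The part of the slope in these values was not tested. The log2 fold change was 0.05 ± 0.10 (SE, edgeR adjusted p = 0.737). With the GC trend removed the groups did not overlap, at 26.7 to 32.1 CPM with Visudyne and 22.3 to 25.1 CPM with vehicle, and the log2 fold change was 0.32 ± 0.06 (SE, edgeR adjusted p = 0.0264). That call held in 5 of the 10 fits without 1 library and ended without Visudyne 3 or 4 or vehicle 6, 7 or 8 (edgeR adjusted p = 0.013 to 0.0905). Adjusted for the GC slope, the value was 0.38 (SE 0.09) and not called (edgeR adjusted p = 0.423).

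Erbb4 (ENSMUSG00000062209, chromosome 1, 68032186 to 69108059, minus strand) encodes the neuregulin receptor that in the hippocampus is found mainly on interneurons. It had 238, 189, 247, 207 and 183 CPM in Visudyne 1 to 5, against 144, 171, 166, 147 and 157 CPM in vehicle 6 to 10. Every Visudyne library was above every vehicle library. The log2 fold change was 0.44 ± 0.09 (SE, edgeR adjusted p = 0.0231), from 213 ± 28.6 CPM with Visudyne and 157 ± 11.7 CPM with vehicle (SD, n = 5 each). Of all genes tested, 5.25% were higher in Visudyne without overlap. This call held in 7 of the 10 fits without 1 library and ended without Visudyne 3 or vehicle 6 or 9 (edgeR adjusted p = 0.00909 to 0.0707).

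At 40.6% Erbb4 had the lowest GC content of the 9 genes. Its log2 fold change with the GC trend removed was 0.19 ± 0.06 (SE, edgeR adjusted p = 0.0865), and the groups overlapped by a small margin, at 180.1 to 220.4 CPM with Visudyne and 158 to 181 CPM with vehicle. Per Gad1 transcript Erbb4 was 0.98, 0.844, 1.05, 0.858 and 0.881 in Visudyne 1 to 5, against 0.64, 0.751, 0.73, 0.725 and 0.735 in vehicle 6 to 10, without overlap. On GC-corrected values this ratio was 0.802 to 0.96 in Visudyne and 0.709 to 0.826 in vehicle, and the groups overlapped. Adjusted for the GC slope, the log2 fold change of Erbb4 was 0.19 (edgeR adjusted p = 0.691).

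**Figure D2:**
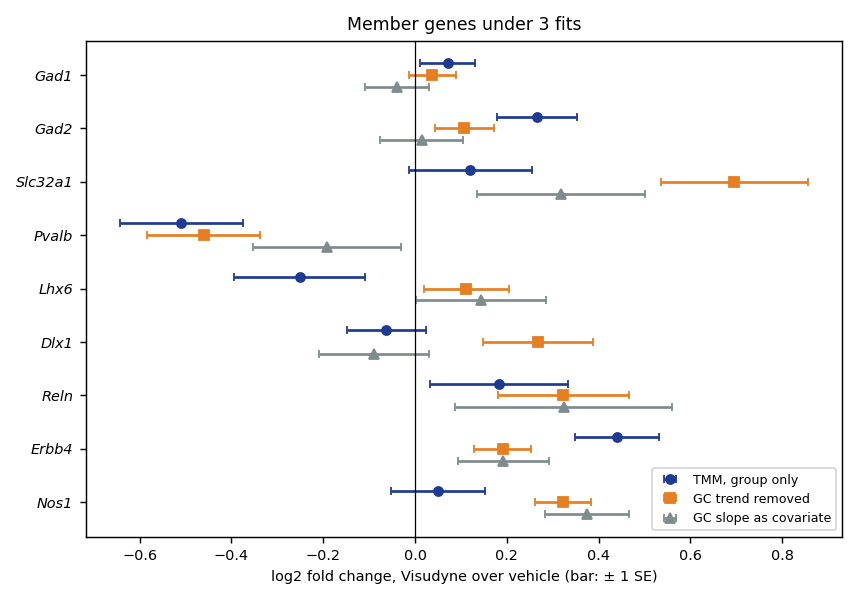
Log2 fold change of Visudyne over vehicle (horizontal axis, bar ± 1 SE, n = 5 each) for the 9 genes by edgeR with TMM library sizes (circles), with each library's GC trend removed (squares) and adjusted for the GC slope (triangles). Removal of the trend moves Slc32a1 from 0.12 to 0.70 and Erbb4 from 0.44 to 0.19, and leaves Pvalb at -0.46.

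**Figure D3:**
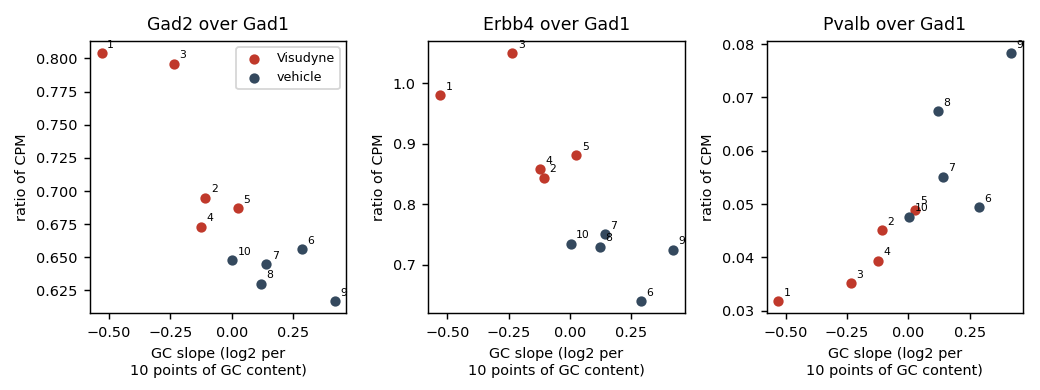
CPM of Gad2, Erbb4 and Pvalb divided by that of Gad1 in the same library (vertical axes, which do not start at 0) against the library's GC slope (horizontal axes), with 1 point per library labelled by its number. Visudyne 1 has the lowest GC slope, -0.53, the highest Gad2 ratio, 0.804, and the lowest Pvalb ratio, 0.0318, and vehicle 9 has the highest slope, 0.42, the lowest Gad2 ratio, 0.617, and the highest Pvalb ratio, 0.0783. The Erbb4 ratio is highest in Visudyne 3, at 1.05 (slope -0.235), and lowest in vehicle 6, at 0.64 (slope 0.287).

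Levels of different genes were compared as CPM per kilobase of merged exons. In Visudyne the order was Gad1 at 30.1 ± 1.91, Gad2 at 28.7 ± 3.75, Erbb4 at 17.2 ± 2.32, Pvalb at 8.78 ± 1.06, Reln at 2.84 ± 0.753, Nos1 at 2.41 ± 0.328, Dlx1 at 1.52 ± 0.113, Slc32a1 at 1.08 ± 0.148 and Lhx6 at 0.974 ± 0.211 CPM per kb (SD, n = 5). The neighbours Gad1 and Gad2, Reln and Nos1, and Slc32a1 and Lhx6 overlapped there. In vehicle the first 7 genes stood in the same order, with Gad1 at 28.7 ± 1.40, Gad2 at 23.9 ± 1.55, Erbb4 at 12.7 ± 0.947 and Pvalb at 12.5 ± 2.43 CPM per kb (SD, n = 5). There Gad1 and Gad2 did not overlap, while Erbb4 and Pvalb, Reln and Nos1, and Lhx6 and Slc32a1 did. In Visudyne, Erbb4 lay above Pvalb without overlap.

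**Figure D4:**
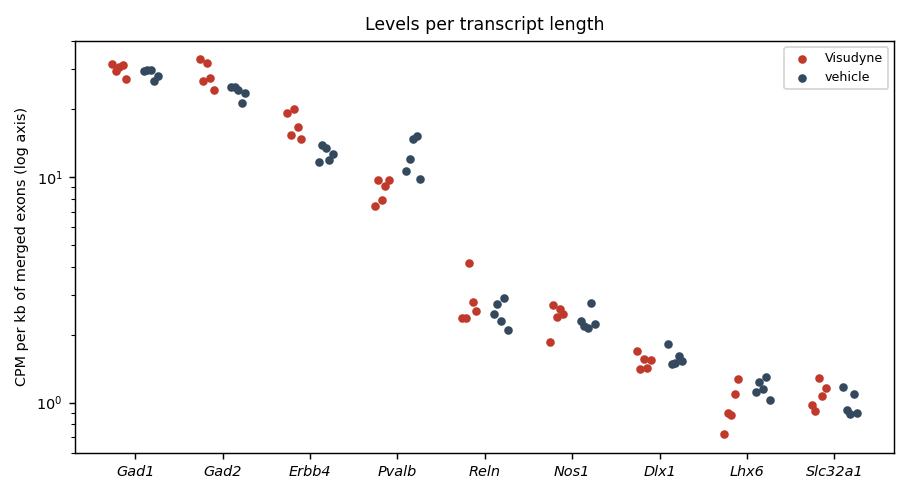
CPM per kb of merged exons (vertical log axis) of the 9 genes, ordered by vehicle level, with 1 point per library, Visudyne left of vehicle within each gene. Gad1 and Gad2 lie highest, at 30.1 and 28.7 CPM per kb in Visudyne, and Slc32a1 and Lhx6 lie near 1.

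The 9 genes are also part of wider lists of interneuron and pathway genes. The counts in each list stand beside a share of 20.5% called over all genes tested, 8.98% higher and 11.5% lower. With the GC trend removed that share was 3.92%. Among genes of GABA synthesis, reuptake and breakdown, 15 of 16 were tested, with 3 called higher, 2 lower and 10 not called (median log2 fold change 0.06). Besides Gad2, Maob, a mitochondrial monoamine oxidase, rose to 17.9 ± 2.08 CPM with Visudyne, against 14.7 ± 1.26 CPM with vehicle (SD, n = 5 each), a 1.21-fold difference. Pdxk, the kinase that makes the cofactor pyridoxal phosphate, was at 0.79 of its vehicle level. Slc6a13, a GABA transporter mainly of the leptomeninges and peripheral organs, fell to 0.776 ± 0.231 CPM with Visudyne, against 2.16 ± 0.694 CPM with vehicle (SD, n = 5 each), or 0.361 of that level, with no overlap. Slc6a13 stayed called with the GC trend removed (log2 fold change -1.16, edgeR adjusted p = 0.0355), and Maob and Pdxk did not, at 0.17 and -0.06.

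Of interneuron transcription factors, 19 of 22 were tested, with 5 called higher, none lower and 14 not called (median log2 fold change 0.19). Calls made up 26.3% of the tested list, against 20.5% of all genes tested. Nkx2-1 was below the filter, and Npas1 and Lhx8 were not analysed here. Nr2f2, a nuclear receptor of caudal ganglionic eminence interneurons and of venous endothelium, rose to 8.47 ± 2.14 CPM with Visudyne, against 4.48 ± 0.763 CPM with vehicle (SD, n = 5 each), a 1.90-fold difference without overlap. Sp9, a zinc finger factor of ganglionic eminence neurons, rose to 2.49 ± 0.391 CPM in Visudyne, against 1.48 ± 0.336 CPM in vehicle, or 1.69-fold. Nr2f1 rose 1.30-fold and Npas3 1.23-fold, and for these 4 genes no Visudyne library lay below the vehicle mean. With the GC trend removed these 4 genes kept their calls, at folds of 1.76 for Nr2f2, 1.956 for Sp9, 1.90 for Nr2f1 and 1.19 for Npas3. Nr2f1 has 60.2% GC, and its corrected values overlapped, at 27.1 to 66.7 CPM with Visudyne and 15.3 to 29.5 CPM with vehicle. Adjusted for the GC slope, edgeR called 0 of the list and 0% of all genes, and 1 of the list had an unadjusted p under 0.05. Nr2f2 was then at a log2 fold change of 0.98 and Sp9, Npas3 and Nr2f1 at 0.32, 0.14 and 0.09. Endothelial cell and pericyte markers summed to 204.8 to 226.5 CPM with Visudyne and 172 to 206 CPM with vehicle, with 2 of 10 called higher, 2 lower and none of the 10 at 0, and their part in the Nr2f2 value was not tested.

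Subtype markers went both ways. Of 29, 26 were tested, and 4 were called higher, 5 lower and 17 not (median log2 fold change 0.04). Calb2, which encodes calretinin, rose to 13.1 ± 1.64 CPM with Visudyne, against 8.83 ± 1.69 CPM with vehicle (SD, n = 5 each), a 1.48-fold difference without overlap. It was also the 1 gene called higher of 7 tested thalamus and habenula markers. The part of RNA from those regions in its value was not tested. Cnr1, the cannabinoid receptor gene of cholecystokinin basket cells, rose to 433 ± 41.4 CPM in Visudyne, against 330.1 ± 27.8 CPM in vehicle. Calb1, which is also strong in granule cells, was at 1.32 and Nxph1, which encodes a neurexin ligand, at 1.19 of the vehicle level.

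The subtype markers that fell, besides Pvalb, were Lamp5, Npy, Cort and Cck. Lamp5, a marker of neurogliaform cells, stood at 6.80 ± 1.34 CPM with Visudyne and 10.01 ± 0.72 CPM with vehicle (SD, n = 5 each), or 0.679 of the vehicle level. Npy, the neuropeptide Y gene, was at 0.815, and Cort, which encodes cortistatin, at 0.517 of the vehicle level. The cholecystokinin gene Cck was listed at 0.287 to 1.51 CPM with Visudyne and 1.40 to 3.76 CPM with vehicle. Counts in a library were low, at 9 to 148 for Cck and 6 to 34 for Cort. Such low values need not be the true levels of these genes. With the GC trend removed, Calb2 (log2 fold change 0.83), Cnr1 (0.26) and Lamp5 (-0.45) stayed called. Besides Pvalb, 5 others lost their calls, with Cck at -1.13, Cort at -0.52, Nxph1 at 0.20, Calb1 at 0.10 and Npy at -0.02, against -1.53, -0.95, 0.26, 0.40 and -0.30 before. Sst, the somatostatin gene, was at 41.9 ± 3.32 CPM with Visudyne and 38.0 ± 1.97 CPM with vehicle. With TMM library sizes and no covariate it was not called (log2 fold change 0.14, edgeR adjusted p = 0.124). It was called with the GC trend removed, at 0.52, and not when adjusted for the GC slope, at 0.16. Other fits were not examined for Sst.

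**Figure D5:**
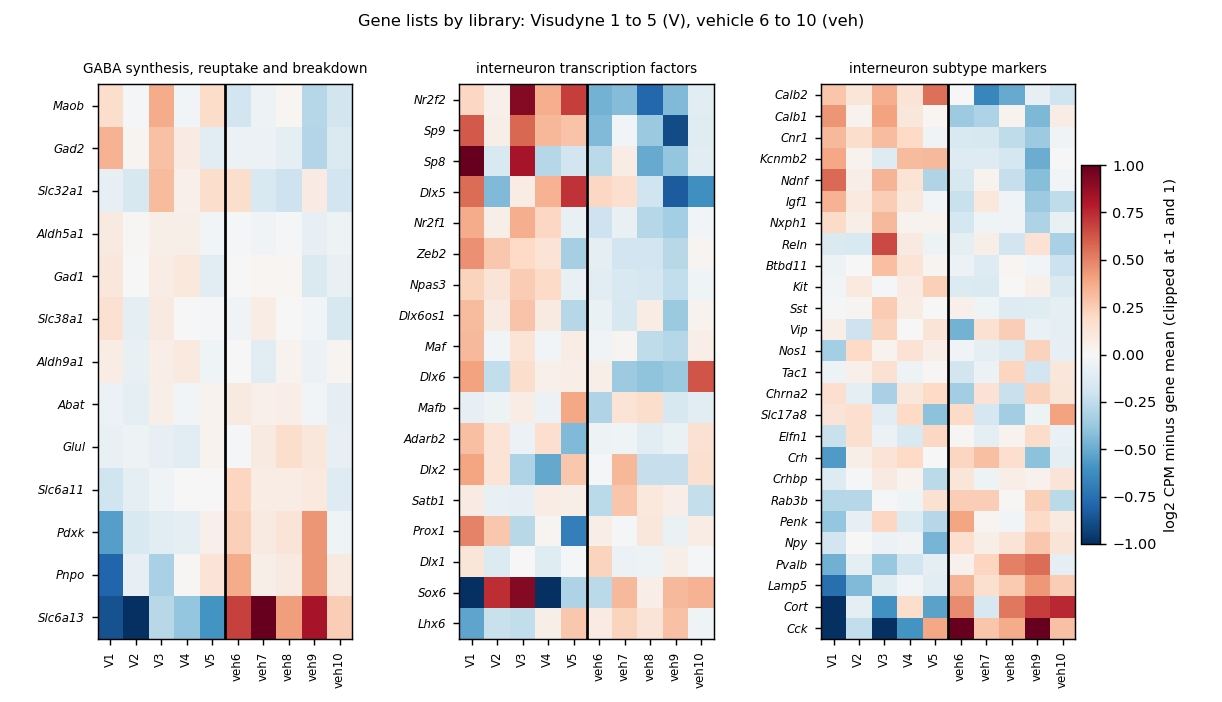
Log2 CPM of tested genes minus their mean over the 10 libraries (colour, clipped at -1 and 1) for 3 lists, with Visudyne 1 to 5 left of the line, vehicle 6 to 10 right of it and genes ordered by log2 fold change. Nr2f2 and Sp9 at the top of the transcription factors and Slc6a13 at the foot of the GABA list separate the groups, and Reln is highest in Visudyne 3, at 98.6 CPM.

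Genes of fast-spiking cells and their perineuronal net, the matrix that sheathes parvalbumin cells, were called in both directions. Of 16 tested, 2 were called higher, 3 lower and 11 not (median log2 fold change -0.06). Kcnc2, a potassium channel gene of fast-spiking cells, fell to 17.3 ± 5.56 CPM with Visudyne, against 28.3 ± 6.51 CPM with vehicle (SD, n = 5 each), or 0.611 of the vehicle level. Bcan, the proteoglycan gene brevican, was at 0.581. Ppargc1a, a coactivator of mitochondrial genes that parvalbumin cells hold at high levels, was at 1.22, and Ptprz1, a receptor phosphatase gene also of glia, at 1.27 of the vehicle level. Once the GC trend was removed edgeR called 0 of the 16 (4 had an unadjusted p under 0.05), beside 3.92% of all genes. Kcnc2 was then at a log2 fold change of -0.80 (edgeR adjusted p = 0.0625).

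In the reelin pathway, 15 of 15 genes were tested, and 2 were called higher, 4 lower and 9 not (median log2 fold change 0.02). The receptor gene Vldlr rose to 149 ± 10.9 CPM with Visudyne, against 120.5 ± 9.22 CPM with vehicle (SD, n = 5 each), and Pafah1b1, which encodes a dynein regulator, was at 1.23 of the vehicle level. Cdk5, a kinase of neuronal positioning, was at 0.668, and Src at 0.596. Of these 4, Cdk5 stayed called with the GC trend removed, at a log2 fold change of -0.34.

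The neuregulin and ErbB4 list had 4 genes called higher, 2 lower and 9 not, of 15 tested (median log2 fold change 0.10). Nrg3, a ligand of ErbB4, rose to 68.7 ± 4.72 CPM with Visudyne, against 53.8 ± 2.98 CPM with vehicle (SD, n = 5 each), a 1.28-fold difference without overlap. Adam10, a sheddase gene, was at 1.35 of the vehicle level. Kalrn, a guanine exchange factor gene, was at 0.795 and Dlg4, the scaffold PSD-95, at 0.658. Nrg3 and Kalrn stayed called with the GC trend removed, at 0.41 and -0.44. Nrg1 was below the filter, and, as for Mag, a low value in this table need not be its true level. Of the nitric oxide and cyclic GMP genes, 2 were called higher, 1 lower and 14 not, of 17 tested (median log2 fold change 0.09). Pde1a, a cyclic nucleotide phosphodiesterase gene, was at 1.29, Prkg2, a cyclic GMP kinase gene, at 1.70 and the calmodulin gene Calm3 at 0.631 of the vehicle level, and Pde9a was not called (log2 fold change -0.36, edgeR adjusted p = 0.0673). Calm3 stayed called with the GC trend removed, at -0.22.

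The counts in all 7 lists moved with single libraries, and so did the calls over the whole table. With every library kept, the share of all genes called was 20.5%. Dropping Visudyne 3 cut that share to 0.167%, dropping vehicle 6 to 0.0622% and dropping vehicle 9 to 1.92%. Dropping Visudyne 5 raised it to 31.5%. At shares this low, 0 calls in a list do not set that list apart from all genes. Without Visudyne 3, and likewise without vehicle 6, edgeR called 0 genes in each of the 7 lists and 0 of the 9 genes, of which 3 had an unadjusted p under 0.05 in either fit. Without vehicle 9 it called between 0 and 2 in each list and 0 of the 9 genes, of which 3 had an unadjusted p under 0.05. Without Visudyne 5, the list counts lay between 4 and 11, and 4 of the 9 genes were called (Pvalb, Gad2, Lhx6 and Erbb4).

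How many of the 9 genes were called varied with the library left out, as did the share of all genes called. In the fits without 1 library, 0 of the 9 were called where the share was 0.167% (without Visudyne 3), 0.0622% (without vehicle 6) or 1.92% (without vehicle 9). Erbb4 alone was called without Visudyne 1, 4 or vehicle 8, at shares of 6.94%, 6.96% and 13.6%. Pvalb and Erbb4 were called without Visudyne 2 or vehicle 7 or 10, at 11.2%, 9.67% and 22.6%, and 4 genes without Visudyne 5, at 31.5%. Gad2 also lost its call with total counts (25.7% of all genes called), relative log expression factors (19.9%), mitochondrial genes left out (20.2%), no filter (7.59%) and limma-voom (21.5%), while Pvalb and Erbb4 kept theirs. With 1 surrogate variable, 0 of the 9 and 0.00627% of all genes were called, and adjusted for the GC slope 0 of the 9 and 0% of all, with 3 and 1 of the 9 at an unadjusted p under 0.05.

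With the GC trend removed, leaving out 1 more library gave 0 of the 9 genes at shares of 0.0433% (without Visudyne 3), 0.655% (Visudyne 4), 0.0124% (vehicle 6), 0.623% (vehicle 7) and 0.378% (vehicle 8). Of the 9 genes, 4 or 5 had an unadjusted p under 0.05 in these fits. Nos1 alone was called without Visudyne 1 (0.931%) or vehicle 9 (0.839%), and Nos1 and Slc32a1 without Visudyne 2 (1.62%). Without vehicle 10 (3.84%) Pvalb joined them, and without Visudyne 5 (11.6%) Pvalb and Erbb4 did. Without both Visudyne 3 and 5, the libraries with high choroid plexus markers, Gad2 and Erbb4 were called (18.4% of all genes), at log2 fold changes of 0.29 and 0.43, and with the GC trend removed Nos1 alone was (2.08%).

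Distance from the GABA synthesis genes was taken over 10 libraries. It was the root mean square difference between a gene's centred log2 CPM and the mean of Gad1, Gad2 and Slc32a1. Of 11595 genes compared, the closest were Wbp11 at 0.0429, Tarsl2 at 0.0464, Akr1e1 at 0.0483, Spag6l at 0.049 and Cox18 at 0.0497. Gad1 itself was 0.0794 from that mean, with 206 genes as close or closer. Gad2 was 0.102 from it, with 1013 genes as close or closer, and Slc32a1 was 0.134 from it, with 2842. These distances include counting error, which is largest for Slc32a1, the gene with the fewest counts. They are not scaled by how much a gene varies, so a gene that varies little can count as close. Gad1, Gad2 and Slc32a1 are also each part of the mean they are compared with. For these reasons the distances and the counts of closer genes cannot tell a shared pattern from low variation.

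Markers of striatal projection neurons, GABAergic cells of a neighbouring region, were measured in part. Of 10 such markers, 4 (Drd2, Adora2a, Gpr6 and Isl1) were under 1 CPM in every library, and 7 were tested, with 1 called higher and none lower. The list summed to 98.1 to 121.5 CPM with Visudyne and 91.9 to 101 CPM with vehicle. Thalamus and habenula markers summed to 95.2 to 160.3 CPM with Visudyne and 84.0 to 114.1 CPM with vehicle. Of 7 tested, 1 was called higher and none lower. Visudyne 1 and 3, the highest libraries for Gad2 and Erbb4, also had the highest sums of both lists. Pan-neuronal markers summed to 5274 to 6440.0 CPM with Visudyne and 4652 to 5361 CPM with vehicle, and those of pyramidal and granule neurons to 731 to 894 CPM with Visudyne and 810 to 1029 CPM with vehicle. None of the 11 pyramidal and granule neuron markers, which define the hippocampus here, stayed under 1 CPM in every library. Of these 11, 2 were called lower and none higher, and of the 10 pan-neuronal markers 1 was called higher and 1 lower. Over all genes tested 20.5% were called. The part of these sums in the values of the 9 genes was not tested.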

How the data were processed

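Estimated counts per Ensembl gene were deposited by the authors for 10 hippocampal libraries. The submitters' processing notes name FastQC, Salmon and mm10. Versions, annotation, strand setting and filters: not given in the sources used here. A stranded total RNA kit was used, per the labels' protocols. The values were deposited as whole numbers and tested as such.

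Symbols, positions, merged exon lengths and GC content came from GENCODE M21 on GRCm38 (mm10), where 27053 of 27343 identifiers matched. Groups were compared in R 4.3.3 with edgeR 4.0.16 (filterByExpr, TMM, quasi-likelihood test, two-sided, no covariates). The SE is the log2 fold change divided by the square root of F. The script was tested on simulated counts that held no GC trend, so that test does not bear on the GC dependence of the calls. Alternatives used other size factors, filters, DESeq2 1.42.0, limma 3.58.1, a surrogate variable (sva 3.50.0), left-out libraries, a loess trend on GC content (span 0.3) removed through offsets, or each library's GC slope as a covariate. The members, lists and alternatives were chosen with earlier results of these data known. Named are the 9 genes, up to 4 others with the smallest p in each of 7 lists, every called gene of the first 3 lists, and the 5 genes of at least 1 CPM closest in pattern. Some listed genes are counted in their lists but not reported here by name. Sst and the marker genes Ttr, Ebf2, Ebf3, Trp73 and Mag were named after their values were seen.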

Additional observations from a re-analysis of the deposited data

Results flagged for a closer look

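In 106 groups of 5 libraries, 9 had an end value far from the other 4 by Dixon's gap ratio (above 0.71), where chance gives about 5%. Among the 9 genes, Reln stood at 98.62 CPM in Visudyne 3, with the other Visudyne libraries at 56.1 to 66.2 CPM, and Nos1 at 30.78 CPM in vehicle 9, with the next vehicle library at 25.6 CPM. Pde1a was at 351.1 CPM in Visudyne 3, and Pde9a was low in Visudyne 1, at 2.416 CPM. Vldlr was low in vehicle 9, at 104.6 CPM. Vehicle 9 was also low in summed microglia markers, at 189.4 CPM, and in summed choroid plexus markers, at 192.6 CPM. Summed Cajal-Retzius markers were high in vehicle 6, at 4.41 CPM, and summed striatal projection neuron markers in vehicle 7, at 101.3 CPM.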

How the results depend on the processing

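Of the 9 genes, 3 were called. The count was 2 or 3 under the other size factors, filters and tests, 0 with 1 surrogate variable (3 at an unadjusted p under 0.05), 0 when adjusted for the GC slope (1 unadjusted), 0 to 4 when 1 library was left out, and with the GC trend removed 2, 0 to 4 without 1 library and 1 without Visudyne 3 and 5. The 3261 genes called overall were 2075 without a filter, 624 with the GC trend removed, 1 with a surrogate variable, 0 with the GC covariate (1201 unadjusted; DESeq2 called 4480 without it), 10 to 5047 without 1 library, and, with the GC trend removed, 2 to 1855 without 1 library and 341 without Visudyne 3 and 5. Why the fits differ was not tested.

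Signs turned as follows, on the log2 scale. With total counts, which move the median of all genes to -0.19 from 0.01, Gad1 was at -0.14, Slc32a1 at -0.0848, Reln at -0.0317 and Nos1 at -0.15; relative to that median they were at 0.06, 0.11, 0.16 and 0.04. Only 196 of 4098 calls were then higher. With a surrogate variable Gad1 was at -0.0103 and Lhx6 at 0.0223. With the GC covariate Gad1 was at -0.0395, Lhx6 at 0.14, Pdxk at 0.0664, Cck at 0.0434, Src at 0.0375 and Dlg4 at 0.0532. With the GC trend removed Lhx6 was at 0.11 and Dlx1 at 0.27, with ranges of 0.0691 to 0.15 and 0.14 to 0.32 without 1 library (down to -0.37 and -0.10 with the trend left in); without Visudyne 3 and 5 they were at 0.0856 and 0.32, and Npy was at 0.10, against -0.07 to 0.0897 without 1 library (down to -0.33 with the trend left in). Slc32a1 was at -0.0116 without Visudyne 3 and 5. No paired analysis was possible because the groups share no replicate numbers.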
